A study of Mus musculus with 2 samples.

Results

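The cells described here are the T cells of mouse alveolar bone, the bone that holds the tooth roots. They were chosen by their own transcripts. A barcode was taken as a T cell when it held at least 1000 unique molecular identifiers (UMIs, each standing for 1 captured RNA molecule) with at most 20% of them from mitochondrial genes, and at least 2 UMIs of Cd3e, Cd3d and Cd3g together, the genes of the CD3 chains that sit beside every T-cell receptor. It also had to hold no UMI of Ncr1, a natural killer (NK) receptor, at most 1 of the B-cell receptor genes Cd79a and Cd79b, and at most 1 of the macrophage genes C1qa, C1qb and C1qc. The rule found 299 T cells among 21809 barcodes that passed the UMI and mitochondrial limits. Library 1 held 143 of 9365 (1.53%, 95% exact binomial interval 1.29 to 1.80), and library 2 held 156 of 12444 (1.25%, 1.07 to 1.46).

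The study asked how single cells of alveolar bone differ while a tooth is being moved. In the orthodontic tooth movement group a nickel-titanium coil spring pulled on the first molar of the right upper jaw with a constant 25 g, and in the control group the spring was attached without force. All mice were C57BL/6J, 6 to 8 weeks old and 20 to 25 g in weight, and at day 7 the molar was extracted and the bone within 1 mm of its socket was taken. Bone of 6 mice was pooled per group (12 mice in all) and digested for 60 min at 37 °C, and red cells were lysed for 10 min before single-cell RNA sequencing. The labels do not tie either library to a group, so the 2 libraries are called library 1 and library 2, no effect of force is given, and neither library has a replicate. Each pair of values below gives library 1 first and library 2 second. Intervals are exact 95% intervals that cover counting error only, and cells of a library are not replicates, so no p-values are given.

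T cells recognise antigens through a receptor made of an alpha and a beta chain, or of a gamma and a delta chain, and they pass the signal on through CD3, the kinases Lck and Zap70 and the adaptor Lat. Those with the co-receptor CD8 are known for killing infected cells, those with CD4 for helping or, with the factor Foxp3, for restraining other cells, and gamma-delta T cells for patrolling barrier tissues, the gum among them. In bone, T cells are known to act on bone-resorbing osteoclasts through secreted factors such as RANKL, TNF, interleukin 17 and interferon gamma.

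The libraries held 77572847 and 116775367 UMIs of annotated genes. The median T cell held 3953 UMIs in library 1 (range 1053 to 31141) and 4615.5 UMIs in library 2 (1138 to 42686), against 3502.5 and 4451.5 UMIs in the other passing barcodes. Levels are given as CPM, the UMIs of a gene for every 1000000 UMIs of the same cells of a library. Levels in barcodes of 10 to 100 UMIs, which hold free RNA rather than cells, stand beside them where they matter. For comparison, 30 and 29 barcodes with Ncr1 and no CD3 UMI form an NK gate, 862 and 1524 with at least 3 Cd79a and Cd79b UMIs a B gate, and 2471 and 2219 rich in S100a8 and S100a9 a neutrophil gate. No T-cell barcode was shared between the libraries, while 75 passing barcodes were.

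Genes that the rule did not use matched the label. The alpha-chain constant gene Trac was counted at 256 CPM (221 to 295) in library 1 and 352 CPM (314 to 392) in library 2 (95% Poisson intervals) in T cells, against 20.5 and 13.1 CPM in the NK gate, 0.796 and 2.37 CPM in the B gate and 5.33 and 6.85 CPM in free RNA. Of the T cells, 120 (83.9%) and 129 (82.7%) held a UMI of Trac, Trbc1, Trbc2 or Trdc, the receptor constant genes. Cd5, a brake on receptor signalling, stood at 125 and 113 CPM in T cells, against 6.83 and 0 CPM in the NK gate and 4.79 and 2.42 CPM in free RNA. Bcl11b, a factor that holds T-cell identity, stood at 122 and 76.5 CPM in T cells, against 6.83 and 0 CPM in the NK gate. Not every marker was so selective. Cd247, the zeta chain that NK cells also use, stood at 122 and 127 CPM in T cells and 143 and 105 CPM in the NK gate, and Thy1 at 269 and 295 CPM in T cells and 307 and 275 CPM in the NK gate.

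**Figure D1:**
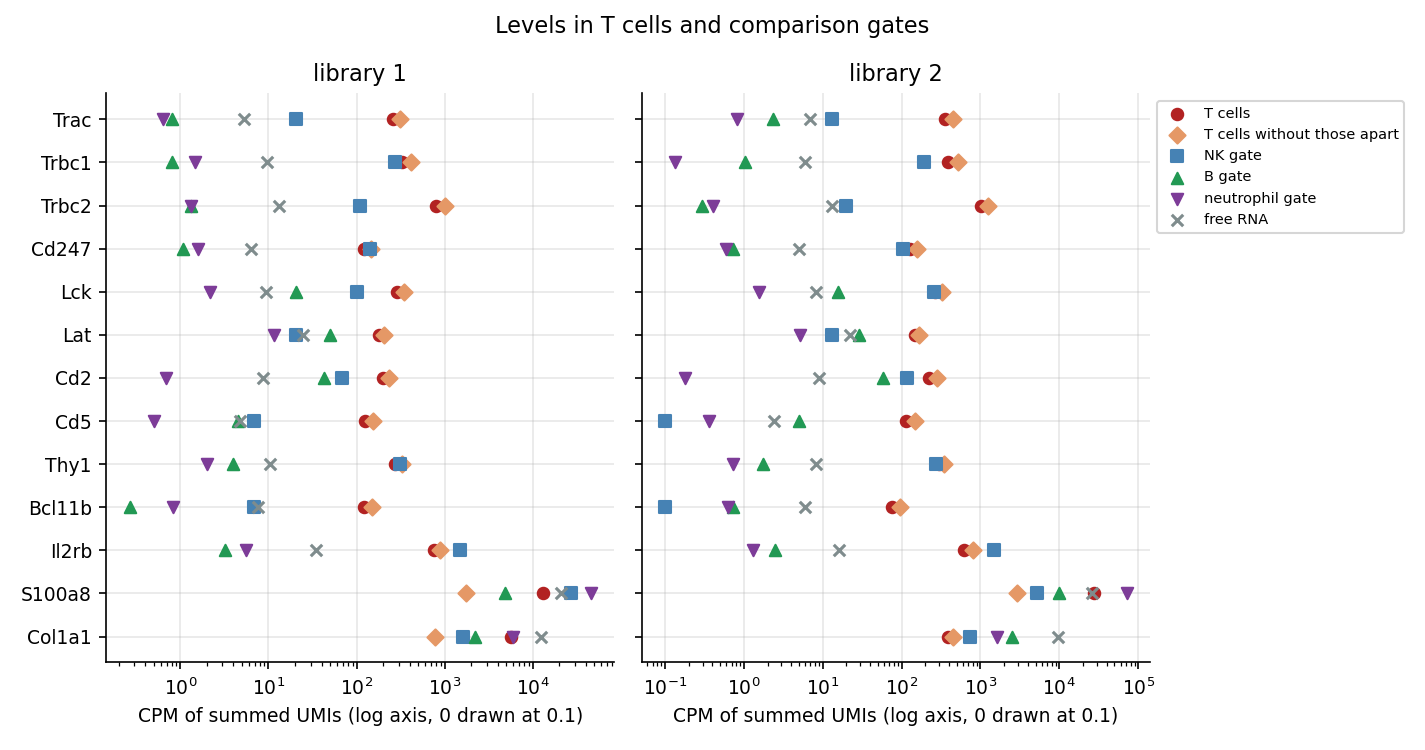
Level of T-cell markers that the rule did not use, and of the neutrophil gene S100a8 and the bone collagen gene Col1a1, in T cells, T cells without those that stand apart (more neutrophil, bone, red-cell or platelet RNA than free RNA holds), the NK, B and neutrophil gates and free RNA of each library, as CPM of summed UMIs on a log axis with 0 drawn at 0.1. Trac, Cd5 and Bcl11b lie at or above 76.5 CPM in the T cells of both libraries and at or below 20.5 CPM in the NK, B and neutrophil gates and free RNA.

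Fewer barcodes held a receptor constant UMI at the threshold of 2 CD3 UMIs than above it. Barcodes with exactly 2 CD3 UMIs numbered 53 and 48, and 62.3% and 58.3% of them held a receptor constant UMI. Just outside, 177 and 108 barcodes with a single CD3 UMI held one in 40.7% and 36.1%. With 3 CD3 UMIs the share was 96.3% and 85.7%, and with 4 or more it was 96.8% and 97.3%. The neutrophil gene S100a8 stood at 29602 and 48224 CPM with exactly 2 CD3 UMIs, 1771 and 45158 CPM with 3, and 4477 and 8298 CPM with 4 or more, so that in library 2 cells just above the threshold held about as much of it as those at the threshold. Cells that stand apart were 17 of 53 and 16 of 48 with 2, and 2 of 27 and 7 of 35 with 3.

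Some T cells stood apart from the rest. In 22 of 143 and 25 of 156 T cells, the share of UMIs from neutrophil, bone, red-cell or platelet genes was above that of the free RNA of their library. Neutrophil genes (S100a8, S100a9, Camp, Ngp, Ltf and Lcn2, which code for granule and antimicrobial proteins) marked 16 and 21 of them, bone genes 2 and 0, haemoglobin genes 1 and 4, and the platelet genes Pf4 and Ppbp 3 and 2. These cells often lay at the threshold, with exactly 2 CD3 UMIs in 17 of 22 and 16 of 25. A receptor constant UMI was found in 9 of 22 and 5 of 25 of them, against 111 of 121 (91.7%) and 124 of 131 (94.7%) of the other T cells. Summed over 10 neutrophil genes, none of them at 0, the T cells held 36059.6 and 64158 CPM, the T cells without those apart 4507 and 5744 CPM, the other passing barcodes 64691 and 69316 CPM and free RNA 56550.1 and 62319.7 CPM. Over 9 bone and stromal genes the sums were 20399 and 1892 CPM in T cells, 3402 and 2197 CPM without those apart and 48475 and 41174 CPM in free RNA. The neutrophil and bone genes that set cells apart are among those summed, so a lower sum without these cells follows from the choice. The 8 B-cell genes that the rule does not cap summed to 138 and 245 CPM in T cells, with Pax5 at 0 in both libraries, against 1037 and 1686 CPM in free RNA. Whether the cells that stand apart are pairs of cells under 1 barcode or cells coated in foreign RNA was not tested. They remain in all counts below unless stated, and the comparisons between groups of T cells are given without them.

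**Figure D2:**
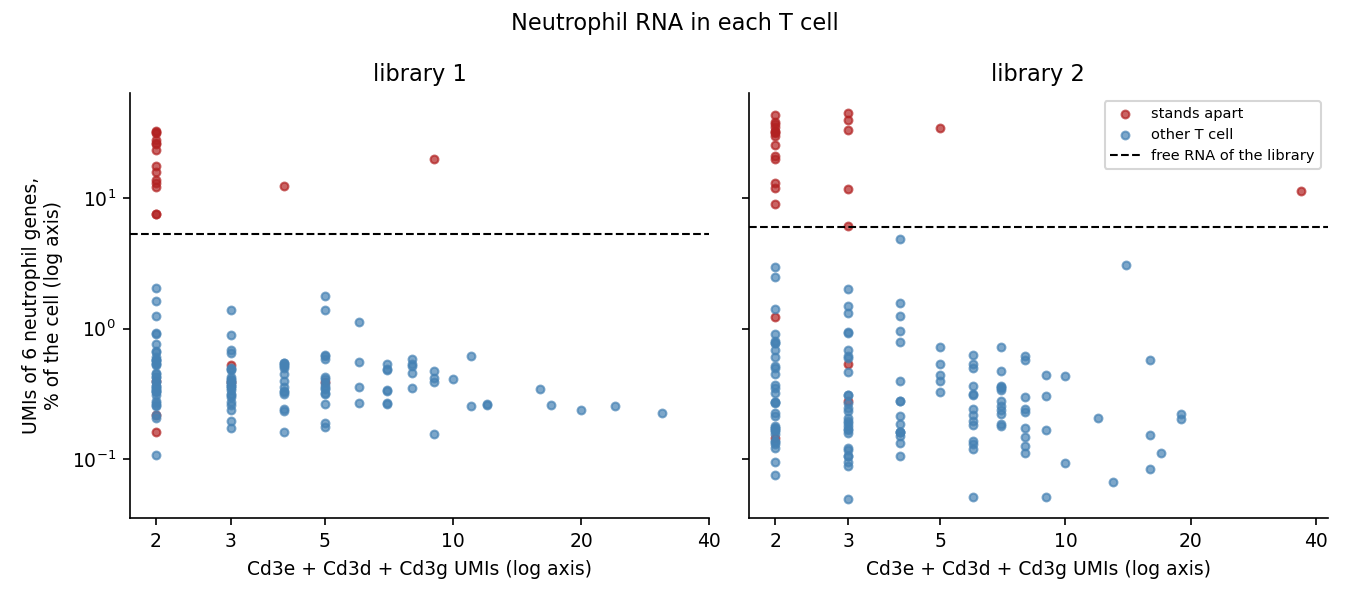
Each point is 1 T cell of library 1 (left) or library 2 (right), with its CD3 UMIs on a log axis and the percentage of its UMIs from 6 neutrophil genes on a log axis. The dashed line is the free RNA of the library (5.33% and 6.00%), and red points are cells that stand apart by neutrophil, bone, red-cell or platelet genes. Most red points have 2 CD3 UMIs.

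Against all other passing barcodes, T cells were led by receptor chains, co-receptors and effector genes. Because the rule itself sets T cells against the rest, the fold differences describe the cells and test nothing. A gene was counted as higher or lower when its CPM differed at least 2-fold in the same direction in both libraries, with at least 20 UMIs over both sides in each. By that measure 897 of 17287 genes (5.19%) were higher and 1509 of 17287 genes (8.73%) lower, the CD3 genes and the other genes of the rule left out. These shares are the background for the list counts against the other barcodes below. The largest smaller-of-both ratios belonged to Gzmk, the granule protease of memory CD8 cells, which stood at 106 and 56.8 CPM in T cells and 0.478 and 0.131 CPM in the other barcodes. Trgc2, Cd8b1, Izumo1r, Cd8a, Trbc2, Themis, Cd6, Trdc, Sh2d1a and Scart1 followed. Without the T cells that stand apart, 1118 of 17282 genes (6.47%) were higher and 1731 of 17282 genes (10%) lower. In the gene lists below, leaving these cells out changed the number of genes higher than in the other barcodes only for the co-receptors (3 of 3, in place of 2 of 3), and where the count of lower genes given below changed, the gene is named there.

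The receptor chains themselves were uneven. All 7 constant-chain and zeta genes that could be compared were higher in T cells than in the other barcodes, with a median log2 ratio of 6.32 and 7.07 beside 0 and 0 over all genes compared. Trbc2, a beta-chain constant gene, stood at 804 CPM (741 to 870.2) in library 1 and 1007 CPM (943 to 1074) in library 2, and its neighbour Trbc1 at 329.7 CPM (290.2 to 373) in library 1 and 391 CPM (352 to 434) in library 2. UMIs of both genes were found in 41 of 143 and 53 of 156 T cells, and because their sequences are nearly alike, the share of each is uncertain. The NK gate held 273 and 189.9 CPM of Trbc1 and 109 and 19.6 CPM of Trbc2, so that Trbc1 alone separated T from NK cells poorly. The delta-chain gene Trdc stood at 112 CPM (89.2 to 138) in library 1 and 79.8 CPM (62.5 to 100.3) in library 2, from 18 of 143 and 13 of 156 T cells. The gamma-chain constant genes, also alike in sequence, were low, with Trgc1 at 47.3 and 16.4 CPM and Trgc2 at 22.3 and 27.3 CPM.

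Nearly the whole signalling apparatus below the receptor was found. Of 20 signalling and surface genes, 19 were higher in T cells than in the other barcodes, with a median log2 ratio of 4.78 and 5.38. Lck, the kinase that starts receptor signalling, stood at 285 and 262 CPM in T cells and 10.1 and 6.16 CPM in the others, and was seen in 79 of 143 and 94 of 156 T cells. Zap70 stood at 76.2 and 88.5 CPM in T cells and 2.08 and 1.01 CPM in the others. The exception was Lcp2, an adaptor that myeloid cells also use, at 160.3 and 149 CPM in T cells and 181 and 86.6 CPM in the others. Themis, which in mice is needed for alpha-beta T cells to mature, was at 0 in the NK gate of both libraries and stood at 47.3 and 39.3 CPM in T cells.

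More T cells held a CD8 than a Cd4 UMI, and most held neither. A CD8 gate (a UMI of Cd8a or Cd8b1 and none of Cd4) held 44 of 143 T cells in library 1 (30.8%, 23.3 to 39.03) and 42 of 156 T cells in library 2 (26.9%, 20.1 to 34.6). A CD4 gate (the reverse) held 10 of 143 T cells in library 1 (6.99%, 3.404 to 12.5) and 5 of 156 T cells in library 2 (3.21%, 1.05 to 7.32). No co-receptor UMI was found in 89 of 143 T cells in library 1 (62.2%, 53.8 to 70.2) and 109 of 156 T cells in library 2 (69.9%, 62.02 to 76.95). No cell held UMIs of both (0 of 143 and 0 of 156), which limits cells with UMIs of both to 2.55% and 2.34% and sets no limit on cells that express both. At these depths a cell without a UMI can still express the gene, and the ratio of CD8 to CD4 cells cannot be read from the gates. After each cell was thinned to 1000 UMIs, the CD8 gate held 14.7% in both libraries and the CD4 gate 2.10% and 0.641%. Both CD8 chains were seen together in 21 and 26 cells, Cd8a alone in 11 and 5, and Cd8b1 alone in 12 and 11. Cd8b1 was found in 0.116% and 0.0656% of B gate cells, whose median depth was 2461.5 and 2303.5 UMIs. Without the T cells that stand apart, the CD8 gate held 35.5% and 31.3% and the cells with no co-receptor UMI 56.2% and 64.9%.

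**Figure D3:**
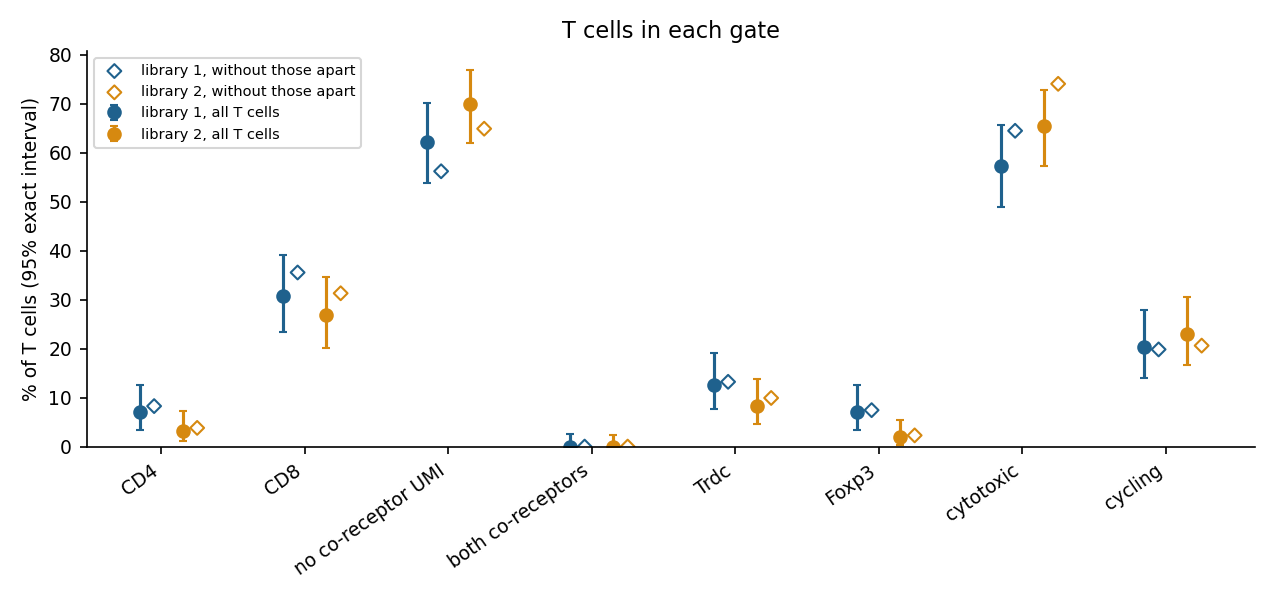
Percentage of T cells in each gate, with filled points for all T cells (exact 95% binomial intervals) and open diamonds for T cells without those that stand apart; the gates overlap. In both libraries the CD8 gate (30.8% and 26.9%) lies above the CD4 gate (6.99% and 3.21%), and the cytotoxic gate holds 57.3% and 65.4%.

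Few listed genes separated CD8 gate cells from T cells with no co-receptor UMI. Without the cells that stand apart, 38 of 4131 genes (0.92%) were higher in the CD8 gate and 53 of 4131 genes (1.28%) lower, with the co-receptor genes left out. With the cells that stand apart kept, 75 of 4897 genes (1.53%) were higher and 231 of 4897 genes (4.72%) lower. Without the cells that stand apart, the lists with 2 or more genes called were 2 of 8 division genes, 2 of 12 cytotoxic genes and 3 of 16 signalling and surface genes, higher in the CD8 gate with none lower, 2 of 15 cytokine receptors, 1 higher and 1 lower, 2 of 6 NK markers, 1 higher and 1 lower, and 2 of 4 gamma-delta and type 17 genes, both lower. Gzmk stood at 258 and 165 CPM in the CD8 gate and 63.5 and 0 CPM in cells with no co-receptor UMI, a ratio of 4.07 (2.402 to 7.21) in library 1 and at least 22.7 in library 2. Over all T cells, the 52 Gzmk UMIs of library 2 came from 15 cells, each of them in the CD8 gate. Gzma, a granzyme shared with NK cells, stood at 1537 and 309 CPM in the CD8 gate and 197 and 104 CPM in the cells without a co-receptor UMI. Themis had a ratio of 3.898 (1.704 to 9.998) in library 1 and 4.499 (2.03 to 10.95) in library 2, and Cd6, a surface receptor that tunes activation, of 2.68 (1.67 to 4.401) in library 1 and 2.503 (1.58 to 4.004) in library 2. Among the lower genes, Trdc stood at 12.5 and 3.92 CPM in the CD8 gate and 240.5 and 174 CPM in the cells without a co-receptor UMI, and Il2ra, the high-affinity interleukin 2 receptor chain, at 45.8 and 15.7 CPM in the CD8 gate and 204 and 94.3 CPM in the others. Of the neutrophil and monocyte marker lists, 0 of 7 and 0 of 2 genes differed in either direction without the cells that stand apart; with those kept, 10 of 10 neutrophil genes and 1 of 2 monocyte genes were lower in the CD8 gate. The 1 lower NK marker counted above was Fcer1g, an Fc receptor chain of myeloid and NK cells, chosen for mention after its values were seen. It stood at 54.2 and 74.4 CPM in the CD8 gate and 227 and 215 CPM in the cells without a co-receptor UMI.

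The CD4 gate, with 10 and 5 cells, allowed only a coarse comparison. Of the genes compared with the CD8 gate, 34 of 2347 genes (1.45%) were higher and 37 of 2347 genes (1.58%) lower, with the cells that stand apart kept. Without them, 33 of 2200 genes (1.5%) were higher and 37 of 2200 genes (1.68%) lower. Maf, a factor of helper and regulatory T cells, stood at 475 and 368 CPM in the CD4 gate and 32.9 and 72.5 CPM in the CD8 gate, a ratio of 14.4 (6.41 to 36.7) in library 1 and 5.07 (1.495 to 13.8) in library 2. Its UMIs in the CD4 gate came from 7 of 10 and 2 of 5 cells. Ube2c, a gene of dividing cells, stood at 390.1 and 1250.5 CPM in the CD4 gate and 78.1 and 128 CPM in the CD8 gate, but all its UMIs in the CD4 gate came from 1 cell in each library. Lower in the CD4 gate were Ly6c2, a surface protein of memory CD8 cells and monocytes, at 102 and 294 CPM against 739.7 and 1208 CPM in the CD8 gate, and Gzmb, at 33.9 and 147 CPM against 1072 and 424 CPM in the CD8 gate. For Tcf7, Cd27 and Gzmb the interval of the ratio reached above 1 in library 2, where the CD4 gate held 1 or 2 UMIs of each.

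T cells expressed many genes of killing, though less than NK cells. Of 17 cytotoxic genes, 15 were higher in T cells than in the other barcodes, with a median log2 ratio of 3.45 and 3.85, and Lamp1, a lysosome protein of most cells, was lower. Against the NK gate, 171 of 5658 genes (3.02%) were higher in T cells and 89 of 5658 genes (1.57%) lower. These shares are the background for the list counts against the NK gate here and below. Of 14 cytotoxic genes compared there, 1 was higher (Gzmk) and 7 lower, with a median log2 ratio of -1.25 and -1.56 beside 0.06 and 0.04 over all genes compared. Without the T cells that stand apart, 5 of 14 were lower, beside 101 of 5033 genes (2.01%) lower and 201 of 5033 genes (3.99%) higher over all genes. The NK gate, from which no cells were left out, also held neutrophil RNA, with S100a8 at 13125 and 27625 CPM in T cells and 26778 and 5232 CPM in the NK gate, and its part in these ratios was not tested. The widest gap was that of Prf1, the pore-forming perforin, counted at 18.4 CPM (10.1 to 30.9) in library 1 and 13.1 CPM (6.77 to 22.9) in library 2 in T cells, against 709.9 CPM (580.0 to 860.1) in library 1 and 419 CPM (323 to 535) in library 2 in the NK gate. Gzmb, the granzyme that triggers cell death, stood at 443 CPM (397 to 493) in library 1 and 269 CPM (236 to 305) in library 2 in T cells, against 1891 CPM (1675 to 2127) in library 1 and 1205 CPM (1037 to 1392) in library 2 in the NK gate. A Gzmb UMI was found in 53 and 52 T cells, but together with Prf1 in only 6 and 6. Gzma stood at 600.3 CPM (547 to 658) in library 1 and 149 CPM (125 to 176) in library 2 in T cells, against 4096 and 4309 CPM in the NK gate.

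Gzmk ran the other way. It was counted at 106 and 56.8 CPM in T cells, against 6.83 and 13.1 CPM in the NK gate, where it rested on 1 and 2 UMIs. The ratio was 15.6 (2.72 to 623) in library 1 and 4.34 (1.14 to 36.8) in library 2. Ccl5, a chemokine stored in killer cells, was the most abundant of the 17 genes in the T cells of both libraries, at 1563 CPM (1476 to 1655) in library 1 and 1894 CPM (1806 to 1986) in library 2, against 4853 and 7897 CPM in the NK gate. Nkg7, a granule membrane protein, stood at 251 and 529 CPM in T cells, against 614 and 1486 CPM in the NK gate. The NK receptor genes Klrd1 and Klrk1 were shared: Klrd1 stood at 110.3 and 115 CPM in T cells and 143 and 367 CPM in the NK gate, and Klrk1 at 80.1 and 78.7 CPM in T cells and 184 and 301 CPM in the NK gate. Klrb1c, which codes for NK1.1, stood at 7.88 and 21.9 CPM in T cells and 157 and 341 CPM in the NK gate. The Ly49 receptor gene Klra8 was at 0 in the T cells of both libraries, which allows up to 3.94 and 3.28 CPM, and stood at 232 and 681 CPM in the NK gate.

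**Figure D4:**
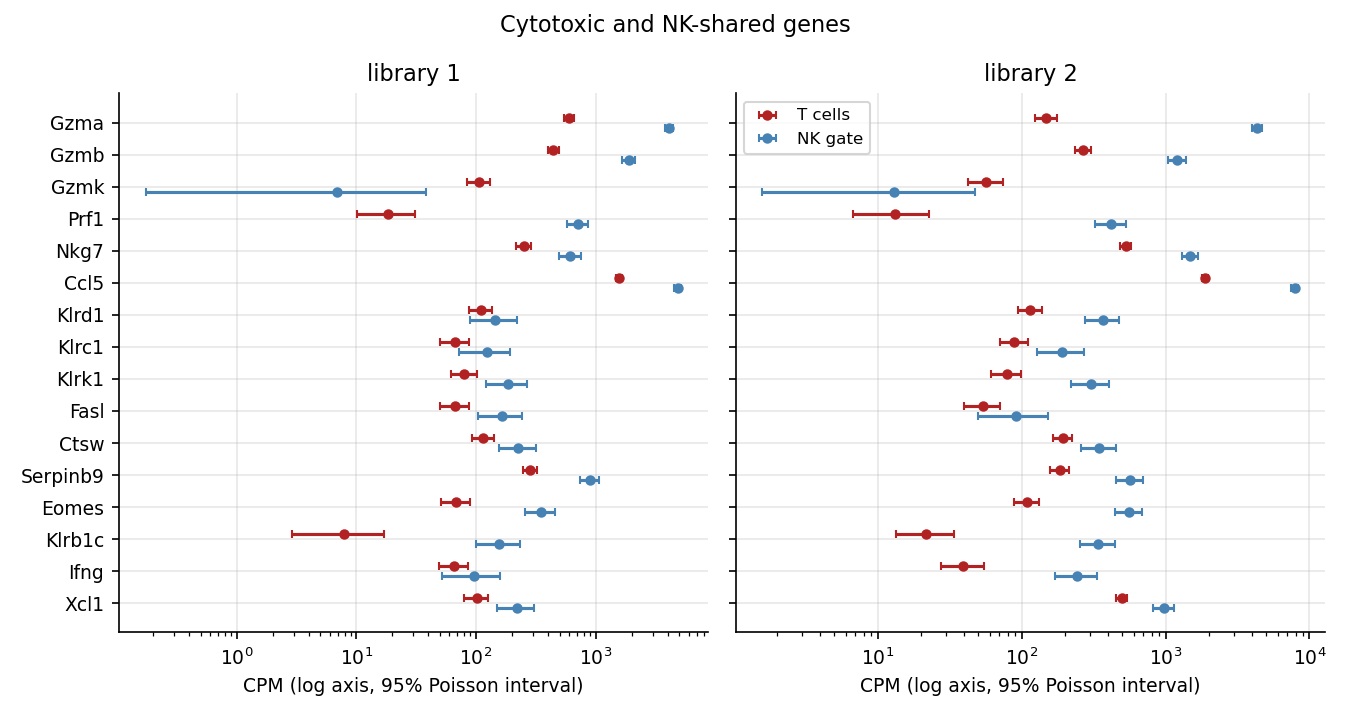
CPM of cytotoxic and NK-shared genes in T cells (red) and the NK gate (blue) of each library on a log axis, with exact 95% Poisson intervals. Red points lie left of blue ones for Prf1, Gzma, Gzmb and Eomes in both libraries, and right of them for Gzmk (106 and 56.8 CPM in T cells, 6.83 and 13.1 CPM in the NK gate).

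A cytotoxic gate (at least 3 UMIs of Nkg7, Ccl5, Gzma, Gzmb and Gzmk together) held 82 of 143 T cells in library 1 (57.3%, 48.8 to 65.6) and 102 of 156 T cells in library 2 (65.4%, 57.4 to 72.8). The same count was reached by 7.93% and 16.0% of neutrophil gate cells and 1.16% and 1.77% of B gate cells, at median UMIs of 3232 and 5206 and of 2461.5 and 2303.5. After thinning to 1000 UMIs with the same minimum, chosen after the values were seen, the gate held 34.3% and 42.9% of T cells, 0.809% and 1.40% of neutrophil gate cells and 0.116% and 0.131% of B gate cells. Of the T cells in the gate before thinning, 37 of 82 and 36 of 102 were in the CD8 gate, which is 37 of 44 and 36 of 42 of the CD8 gate cells, and 42 of 82 and 64 of 102 had no co-receptor UMI. Without the cells that stand apart, 122 of 4371 genes (2.79%) were higher in the gate than in the other T cells and 45 of 4371 genes (1.03%) lower. With them kept, the counts were 304 of 5128 genes (5.93%) higher and 231 of 5128 genes (4.5%) lower. Eomes, a factor of killer cells, stood at 111 and 164 CPM in the gate and 6.68 and 9.07 CPM in the other T cells, where it rested on 1 UMI in each library. By list, 4 of 7 cytotoxic genes that form no part of the gate were higher in it and none lower. Xcl1, a chemokine that draws cross-presenting dendritic cells, stood at 165 and 776 CPM in the gate and 20.04 and 18.1 CPM in the other T cells. Fasl, the death ligand, stood at 95.8 and 76.9 CPM in the gate and 20.04 and 9.07 CPM in the other T cells. Of the gamma-delta and type 17 list, 3 of 4 genes were lower in the gate and none higher. Maf, one of these 3, stood at 100.3 and 64.7 CPM in the gate and 274 and 218 CPM in the other T cells. Genes outside this list were also lower there. S100a4 stood at 181 and 126 CPM in the gate and 554 and 326 CPM in the others. The interleukin 7 receptor gene Il7r stood at 125 and 61.2 CPM in the gate and 301 and 326 CPM in the others.

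Type 1 genes, those of the interferon gamma programme, followed the killing genes. Of 8 compared, 7 were higher in T cells than in the other barcodes (median log2 ratio 3.74 and 4.16), and against the NK gate 4 of 7 were lower (2 of 7 without the T cells that stand apart) and none higher. Stat4, which carries the interleukin 12 signal, stood at 265 and 164 CPM in T cells and 355 and 255 CPM in the NK gate. Cxcr3, a homing receptor of type 1 cells, was seen in 9 of 143 and 29 of 156 T cells, at 14.4 and 45.9 CPM. Of the type 2 genes, Gata3 stood at 89.3 and 28.4 CPM, whereas the cytokine gene Il4 gave 3 UMIs from 1 cell in library 1 and 0 in library 2, and Il13 gave 0 in both, which allows up to 3.94 and 3.28 CPM. Zbtb16, the factor of innate-like NKT cells, was found in 10 of 143 and 4 of 156 T cells.

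Factors of T-cell identity were found at uneven levels. Of 16 such factors, 9 were higher in T cells than in the other barcodes and 1 lower (median log2 ratio 1.99 and 1.54). Tcf7, a factor of naive and memory cells, stood at 173 and 176 CPM in T cells and 15.5 and 11.1 CPM in the others, and Ets1 at 574 and 369 CPM in T cells and 132 and 125 CPM in the others. Zbtb7b, the factor that fixes the CD4 lineage, was seen in 7 of 143 and 11 of 156 T cells, at 11.8 and 17.5 CPM, beside 22.96 and 15.5 CPM in free RNA. Runx3, its counterpart in CD8 cells, stood at 147 and 151 CPM in T cells and 40.4 and 49.4 CPM in free RNA. Id3, an inhibitor of E proteins, was the lower gene, at 125 and 72.1 CPM in T cells and 497 and 338 CPM in the others, and Zbtb7b was also lower without the T cells that stand apart.

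Some genes of recirculating cells and some of memory and resident cells were higher in T cells than in the other barcodes. Of 11 naive and recirculating genes compared, 5 were higher and 2 lower (Igfbp4 and Rapgef4, the first of them not without the T cells that stand apart), and of 17 memory and residence genes 6 were higher and none lower. Ccr7, the receptor that guides cells into lymph nodes, stood at 222 CPM (189.8 to 258) in library 1 and 206 CPM (178 to 238) in library 2 in T cells, from 39 of 143 and 41 of 156 cells. Cxcr6, a receptor of resident and activated T cells, stood at 196 CPM (166 to 229.8) in library 1 and 87.4 CPM (69.3 to 109) in library 2, from 34 of 143 and 31 of 156 cells, against 6.83 and 0 CPM in the NK gate. Itgae, the integrin of cells within epithelia, was found in 4 of 143 and 6 of 156 T cells. Dapl1, a gene of naive CD8 cells, gave 1 UMI in library 1 and 37 UMIs from 12 cells in library 2. Il2rb, the interleukin 2 and 15 receptor chain of memory cells, was found in 114 of 143 and 108 of 156 T cells and in 0.928% and 0.787% of B gate cells.

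T cells with delta-chain transcripts formed a minority. A Trdc UMI was found in 18 of 143 T cells in library 1 (12.6%, 7.63 to 19.2) and 13 of 156 T cells in library 2 (8.33%, 4.51 to 13.8), against 0.283% and 0.0451% of neutrophil gate cells at median depths of 3232 and 5206 UMIs. Trdc UMIs were also found in the NK gate of library 2, so such a UMI alone does not separate T from NK cells. In library 1 the 18 cells held between 1 and 29 Trdc UMIs, and in library 2 the 13 cells between 1 and 22. Of them 16 of 18 and 12 of 13 had no co-receptor UMI, and 10 of 18 and 8 of 13 also held a gamma constant UMI. A gamma constant UMI was not confined to them, and was found in 19 of 143 and 21 of 156 T cells in all. UMIs of Trac or a Trbc gene were found beside Trdc in 14 of 18 and 10 of 13. Most cells with Trdc thus also held alpha or beta transcripts, and the purity of the gate cannot be read from these counts.

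Against the other T cells, without the cells that stand apart, 34 of 4375 genes (0.777%) were higher in cells with Trdc and 126 of 4375 genes (2.88%) lower. With those cells kept, 72 of 5132 genes (1.4%) were higher and 141 of 5132 genes (2.75%) lower. Scart1 (also called Cd163l1), a scavenger receptor of interleukin 17-producing gamma-delta cells in mice, stood at 444 and 267 CPM in cells with Trdc and 5.93 and 8.03 CPM in the other T cells, a ratio of 74.8 (23.9 to 378) in library 1 and 33.2 (11.6 to 116) in library 2. Of the T cells with a Scart1 UMI, 7 of 8 and 3 of 4 held Trdc. Il2ra stood at 422 and 234 CPM in cells with Trdc and 73.1 and 46.6 CPM in the other T cells, with a ratio of 5.77 (3.59 to 9.31) in library 1 and 5.01 (2.45 to 9.79) in library 2. Sox4, a factor that interleukin 17-producing gamma-delta cells need in mice, stood at 411 and 183 CPM in cells with Trdc and 31.6 and 36.96 CPM in the other T cells. The residence gene Cxcr6 stood at 433 and 284 CPM in cells with Trdc and 179.8 and 98.02 CPM in the other T cells, and the migration-linked gene S100a4 at 671 and 384 CPM in cells with Trdc and 202 and 137 CPM in the others. Trac was lower, at 43.3 and 83.4 CPM in cells with Trdc and 358 and 488 CPM in the others. Themis, at 10.8 and 16.7 CPM in cells with Trdc and 69.2 and 56.2 CPM in the others, rested on 1 UMI in the cells with Trdc of each library.

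**Figure D5:**
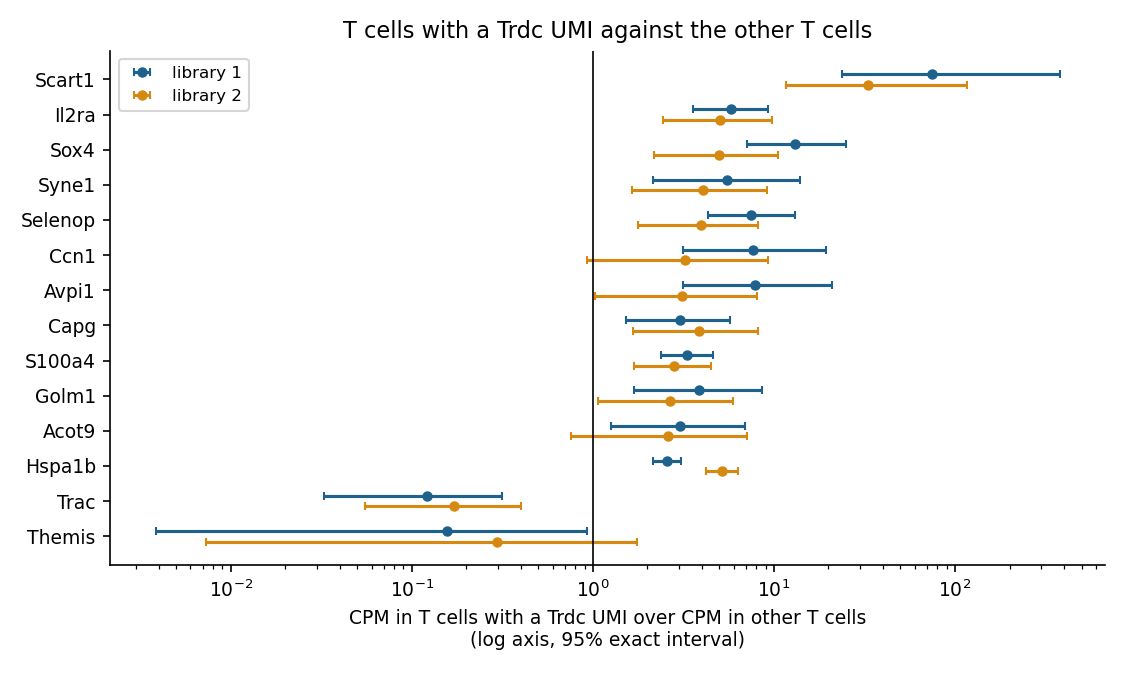
Ratio of CPM in T cells with a Trdc UMI over CPM in the other T cells, without the cells that stand apart, on a log axis with exact 95% intervals, for the 12 genes with the highest smaller-of-both ratio and for Trac and Themis. Scart1 lies farthest to the right (74.8 and 33.2), and Trac lies left of 1 in both libraries.

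Type 17 genes were found in few cells. Il17a, the cytokine that drives neutrophil recruitment and, in bone, resorption, was counted in 4 cells of library 1, with 6, 5, 2 and 1 UMIs, and in none of library 2, which allows up to 3.28 CPM. Of the 4 cells, 3 held Trdc. Il17f was counted in 3 cells of library 1 with 5, 2 and 1 UMIs. The skin and gum homing receptor Ccr6 was found in 1 of 143 and 1 of 156 T cells. Rora, a factor of these and other lymphocytes, stood at 276 and 106 CPM in T cells and 89.1 and 81.8 CPM in the other barcodes.

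Variable segments were thinly covered, so that clonal makeup cannot be read. Alpha segments were seen in 9 and 10 T cells, as 9 and 10 of the 130 listed, and beta segments in 8 and 11 T cells, as 7 and 8 of the 35 listed. More than 1 beta segment was found in 1 cell of library 1 and in none of library 2. Gamma segments were seen in 10 and 3 T cells, with Trgv2 in 6 cells of library 1, and Trgv1, Trgv2 and Trgv4 in 1 cell each of library 2. Of the delta segments, Trdv4 was seen in 3 and 4 cells and Trdv5 in 1 cell of library 2. Trgv6, whose chain marks a gamma-delta lineage of barrier tissues in mice, gave 2 UMIs from 2 cells in library 1 and 0 in library 2.

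Few T cells held a Foxp3 UMI, which sets no upper limit on regulatory T cells. A Foxp3 UMI was found in 10 of 143 T cells in library 1 (6.99%, 3.404 to 12.5) and 3 of 156 T cells in library 2 (1.92%, 0.398 to 5.52), at 28.9 and 6.56 CPM from 22 and 6 UMIs, against 0.121% and 0.0451% of neutrophil gate cells. Ctla4, the checkpoint receptor of these cells, was found beside Foxp3 in 8 of 10 and 2 of 3, Ikzf2 (Helios) in 6 of 10 and 1 of 3, and Il2ra in 2 of 10 and 2 of 3. A Cd4 UMI was found in 4 of 10 and 0 of 3. In these cells Ctla4 stood at 1131 and 167 CPM, Ccr7 at 1218 and 167 CPM and Maf at 1044 and 167 CPM, and Cxcr6 was at 0 in both libraries, on 10 and 3 cells. The levels in the 3 cells of library 2 are coarse, and the 0 of Cxcr6 there cannot be read as absence. Of 10 regulatory-list genes compared, 7 were higher in T cells as a whole than in the other barcodes (median log2 ratio 3.82 and 3.26), a list that holds activation genes other T cells share, such as Ctla4. Izumo1r, the folate receptor 4 gene of regulatory and follicular helper cells, stood at 31.5 and 15.3 CPM in T cells and 0.2104 and 0.143 CPM in the others.

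Most costimulatory and checkpoint receptor genes were higher in T cells than in the other barcodes. Of 17 compared, 14 were higher in T cells than in the other barcodes and none lower (median log2 ratio 4.36 and 4.68), and against the NK gate 5 of 10 were higher and 1 lower. Over all genes compared with the NK gate, 3.02% were higher and 1.57% lower. Cd28, the classical costimulator, stood at 155 and 131 CPM in T cells and 75.1 and 26.2 CPM in the NK gate, and Cd27 at 166 and 167 CPM in T cells and 54.6 and 72.03 CPM in the NK gate. Icos, the inducible costimulator, stood at 459.7 CPM (413 to 511) in library 1 and 149.7 CPM (126 to 177) in library 2, with intervals that do not meet, and 57 of its 350 UMIs in library 1 came from 1 cell. Pdcd1, the gene of the checkpoint receptor PD-1, stood at 112 CPM (89.2 to 138) in library 1 and 57.9 CPM (43.4 to 75.7) in library 2, and at 0 in the NK gate of both libraries. Tnfrsf4 (OX40) stood at 126 and 12.02 CPM, but 56 of its 96 UMIs in library 1 came from 1 cell. Lag3, a receptor of exhausted and activated T cells, stayed near free RNA, at 11.8 and 7.65 CPM in T cells and 14.04 and 10.5 CPM in free RNA. Tnfrsf9 (4-1BB) was the gene lower than in the NK gate, at 193 and 138 CPM in T cells and 887 and 367 CPM in the NK gate.

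Of the cytokines that act on bone and marrow, some were higher in T cells than in the other barcodes and others were not. Among 18 compared, 7 were higher and 3 lower (median log2 ratio 0.92 and 0.24). Over all genes compared, 5.19% were higher and 8.73% lower. Ltb, the lymphotoxin beta gene, was the most abundant of the higher ones, at 190.5 CPM (161 to 224) in library 1 and 185 CPM (158 to 215) in library 2 in T cells, against 0 and 6.55 CPM in the NK gate and 40.5 and 19.6 CPM in all other barcodes. Ifng, which restrains osteoclast formation in culture, stood at 65.7 CPM (48.7 to 86.6) in library 1 and 39.3 CPM (27.5 to 54.5) in library 2, from 11 of 143 and 16 of 156 cells, and 26 of its 50 UMIs in library 1 came from 1 cell. Areg, a growth factor of tissue repair, stood at 35.5 and 26.2 CPM in T cells and 9.05 and 5.78 CPM in the others. Csf2, the granulocyte-macrophage factor, rested on 2 UMIs in library 1 and 17 in library 2, of which 13 came from 1 cell.

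Tnfsf11, the RANKL gene, gave 12 UMIs in each library, from 6 and 7 T cells. That is 15.8 and 13.1 CPM in T cells, against 33.2 and 24.4 CPM in the other barcodes and 35.04 and 26.2 CPM in free RNA. The share of T cells with a UMI was 4.20% (1.56 to 8.91) and 4.49% (1.82 to 9.03), beside 3.12% and 1.85% of neutrophil gate cells, which lie within those intervals. In each library 5 of the 12 UMIs came from 1 cell. None of the 18 and 13 T cells with Trdc or the 10 and 3 with Foxp3 held it, too few cells for absence to be read. Its receptor gene Tnfrsf11a was at 0, which allows up to 3.94 and 3.28 CPM. Tnf stood at 42.03 and 83.03 CPM in T cells, against 202 and 53.7 CPM in the other barcodes, below them in library 1 and above them in library 2. Il10, Il6 and Csf1 were the lower genes, and Il10 stood at 2.63 and 1.09 CPM in T cells, against 35.4 and 20.9 CPM in the others. Il2 was found in 2 and 0 T cells, and Il3 and Il21 were at 0 in both libraries.

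Among chemokines, Ccl5 and Xcl1 were higher in T cells than in the other barcodes, and Ccl3, Ccl4 and Cxcl10 lower, the last of them not without the T cells that stand apart. Xcl1 stood at 101 CPM (79.8 to 126) in library 1 and 495 CPM (450.4 to 543) in library 2 in T cells, from 23 of 143 and 51 of 156 cells, and 110 of its 453 UMIs in library 2 came from 1 cell. Ccl4 stood at 149.7 and 66.6 CPM in T cells, against 979 and 257 CPM in the other barcodes and 669 and 694 CPM in the NK gate. Of 18 trafficking receptors compared, 10 were higher in T cells than in the other barcodes and none lower (median log2 ratio 1.27 and 1.39). Ccr2, a receptor for inflamed tissue, stood at 118 and 86.3 CPM in T cells and 287 and 275 CPM in the NK gate. S1pr1, which lets T cells leave tissue, stood at 113 and 95.1 CPM in T cells and 0 and 19.6 CPM in the NK gate. Cxcr4, which holds cells in marrow, stood at 397 and 272 CPM in T cells and 193 and 174 CPM in the others. The skin receptor Ccr4 was found in 1 and 2 T cells, and Ccr8 in none.

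Cytokine receptors of lymphocytes were found together with general ones. Of 19 compared, 11 were higher in T cells than in the other barcodes and none lower (median log2 ratio 1.24 and 1.39). Il2rb stood at 762 and 625 CPM in T cells and 1502 and 1506 CPM in the NK gate, and Il7r at 147 and 77.6 CPM in T cells and 20.5 and 6.55 CPM in the NK gate. Il21r, the receptor of a helper cytokine, stood at 239 and 208 CPM in T cells and 24.6 and 20.97 CPM in the others. Ifngr1, the interferon gamma receptor, stood at 583 and 472 CPM in T cells and 109 and 110.3 CPM in the others. Il6ra, at 22.3 and 13.1 CPM in T cells, was below the 39.5 and 31.9 CPM of free RNA.

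Of 9 listed genes of immature thymocytes, 6 were at 0 in the T cells of both libraries. These were Rag1, Rag2 and Dntt, which assemble receptor genes, Ptcra, the alpha chain of the pre-receptor, and Arpp21 and Tdrd5, which allows up to 3.94 and 3.28 CPM of each. The B gate, which includes B-cell precursors, held 167 and 126 CPM of Rag1 and 134 and 62.4 CPM of Dntt. Rmnd5a, a ubiquitin ligase subunit on the same list, was found in 45 of 143 and 52 of 156 T cells, at 88.01 and 91.8 CPM, against 54.5 and 49.2 CPM in the other barcodes, and Ccr9 and Cd1d1 were each found in 4 to 6 T cells of a library.

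Division transcripts were found in a minority of T cells. At least 2 UMIs of Mki67 and Top2a were held by 29 of 143 T cells in library 1 (20.3%, 14.02 to 27.8) and 36 of 156 T cells in library 2 (23.1%, 16.7 to 30.5), and these cells were deeper than the rest, with median UMIs of 7003 and 8371. The same count was reached by 24.7% and 35.2% of neutrophil gate cells and 29.1% and 24.7% of B gate cells, both of which can hold dividing precursors. After thinning to 1000 UMIs, T cells held 7.69% and 3.85% such cells, against 10.2% and 14.2% in the neutrophil gate and 21.0% and 16.3% in the B gate. Of the T cells that reached it before thinning, 15 of 29 and 16 of 36 were in the CD8 gate, and 21 of 29 and 27 of 36 in the cytotoxic gate. Of all T cells, the CD8 gate held 30.8% and 26.9% and the cytotoxic gate 57.3% and 65.4%. Each of these gates needs a minimum of UMIs, and the part of depth in the overlaps was not tested. None of 11 division genes was 2-fold higher or lower in T cells than in the other barcodes of both libraries. Mki67 stood at 296 and 339 CPM in T cells, against 386 and 499 CPM in the others and 361 and 496 CPM in free RNA. Free RNA thus carried the gene at a like level, and its part in the gate was not tested. In the cytotoxic gate, without the cells that stand apart, 3 of 10 division genes were at least 2-fold higher than in the other T cells of both libraries, and none lower. Over all genes compared there, 122 of 4371 genes (2.79%) were higher and 45 of 4371 genes (1.03%) lower.

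Interferon-response genes stood higher in library 1, in T cells and in the other barcodes. In T cells, 11 of 12 genes of the list were higher in library 1 with intervals that do not meet, and none lower, and in the other barcodes 11 of 12 were. The share of all genes with such intervals was not counted, so the difference cannot be called particular to this list. Whether the higher levels in library 1 follow the study's groups cannot be told from the labels. Isg15, an antiviral ubiquitin-like protein, stood at 713 CPM (655 to 776) in library 1 and 146 CPM (123 to 173) in library 2 in T cells, against 405 and 119 CPM in the other barcodes. Ifit1 stood at 537 and 59.00 CPM in T cells and 292 and 78.2 CPM in the others, and Ifit3 at 402 and 45.9 CPM in T cells and 151 and 34.3 CPM in the others. Of 12 genes of the list, 3 were at least 2-fold higher in T cells than in the others of both libraries, Usp18 and Zbp1 among them, and none lower. The MHC class I gene H2-K1 stood at 3671 and 2942 CPM in T cells and 1317 and 998 CPM in the others.

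Immediate early genes, which tissue digestion can induce, were lower or level in T cells. Of 17 compared, 5 were lower (Fos, Fosb, Jun, Egr1 and Ier3) and none higher, beside 8.73% lower and 5.19% higher over all genes compared. Fos stood at 529 and 399.9 CPM in T cells, against 1665 and 1045 CPM in the other barcodes, and Egr1 at 222 and 185 CPM in T cells, against 1021 and 604 CPM in the others. Junb, called in neither direction, was found in 120 of 143 and 136 of 156 T cells, at 854 and 1043 CPM in T cells and 1021 and 657 CPM in the others. The heat-shock gene Hspa1b, whose reads cannot be told safely from those of its copy Hspa1a, was higher in T cells with Trdc, at 2024 and 2485 CPM, than in the other T cells, at 790.5 and 480.5 CPM. With the cells that stand apart counted, its UMIs came from 7 of 18 and 6 of 13 cells with Trdc.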

How the data were processed

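The deposited files hold, per library, a matrix of raw UMI counts per gene and barcode with no cell filter; the aligner and counter the authors used are not stated in any label or header. Per the submitters' processing notes, FastQC 0.11.9 was run and the builds GRCh38 and mm10 are listed with no role, so no coordinates are printed. Per the labels' protocols, single-cell suspensions were processed as single-cell RNA-seq libraries of pooled bone. Barcodes were kept at 1000 UMIs or more over mouse gene IDs and at most 20% mitochondrial UMIs. Features outside these gene IDs, which were left out, held 0.602% and 0.431% of all UMIs of the libraries. No column of another sample was present (0 columns).

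UMIs were summed over cells and given as CPM of all gene-ID UMIs, with exact Poisson intervals; shares have exact Clopper-Pearson intervals, both at 95%. A gene is called at a 2-fold or larger difference in the same direction in both libraries, with at least 20 UMIs over both sides in each. A side at 0 is set to a floor of 3 UMIs per side and library, which gives a bound in 1 direction. Intervals and floors cover counting error only. No p-values are given, because each library is 1 pool that the labels put in no group and cells are not replicates. Gates were as follows: NK, at least 1 UMI of Ncr1 and none of CD3; B, at least 3 of Cd79a and Cd79b; neutrophil, at least 20 of S100a8 and S100a9 and 1 of Csf3r; free RNA, 10 to 100 UMIs. The T, B and neutrophil shares were also taken after thinning cells to 1000 UMIs. Doublets were not removed in the values reported, and dropping the 5% of barcodes with the highest Scrublet scores was tried as an alternative. The fold calls were tested on simulated data, in which some genes with few T-cell UMIs were called without a true change.

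The T cells and the 32 gene lists (346 genes) were chosen with earlier results of these data known. For 4 list genes the symbol was replaced by that of the same gene ID (Cd163l1 by Scart1, for example), and 5 have no symbol here. Named genes are list genes with at least 20 UMIs in the T cells of both libraries or at or near 0, the 25 with the highest ratios over other barcodes, and 15 per direction between the CD4 and CD8 gates. Named after their values were seen were the other genes of the comparisons with the NK gate and between gated T cells (Fcer1g, Sox4, S100a4 and Hspa1b among them) and single genes of low count. The comparisons with the NK gate and between gates other than CD4 over CD8, and the values without the cells that stand apart, were added after the data were seen. Python 3.11.15, numpy 2.4.6, scipy 1.17.1, pandas 2.3.3, scanpy 1.11.5 and matplotlib 3.10.9 were used. Some genes of the lists, and gates built on them, are not reported here.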

Additional observations from a re-analysis of the deposited data

How the results depend on the processing

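Of 154 recomputed shares and counts, 118 stayed within the interval of the value reported, or within 1.5 times it for counts of genes, and 36 moved. The share of T cells was 1.06% in library 2 at a minimum of 500 UMIs and 1.92% in library 1 at a minimum of 2000. With at least 3 CD3 UMIs it was 0.961% and 0.868%, and with at least 1 it was 3.42% and 2.12%. It was 1.05% in library 2 without the cells that stand apart. Leaving out every cell with more than a few UMIs of neutrophil, bone or platelet genes, Siglech or Lyz2 kept 1 and 13 T cells (0.0107% and 0.104%), too few for further values. With at least 3 CD3 UMIs the CD8 gate held 40% and the cells with no co-receptor UMI 51.1% of library 1. With at least 1, the CD8 gate held 18.1% and 17.8%, the cells with no co-receptor UMI 77.2% and 80.3%, and cells with Trdc 7.5% of library 1. Thinned to 1000 UMIs, the CD4 gate held 2.10% and 0.641%, the CD8 gate 14.7% and 14.7%, and cells with no co-receptor UMI 83.2% and 84.6%; from Cd8b1 alone the CD8 gate held 23.1% of library 1. Of 169 named genes, the number with a level inside the interval reported was 89 and 91 with at least 3 CD3 UMIs, 49 and 61 with at least 1, 103 and 71 without the cells that stand apart, 70 and 66 after thinning, and 96 and 78 as a mean of the cells' own CPM. The 71 genes that differed between the CD4 and CD8 gates became 145 at 10 UMIs or more, 24 at 50 or more, and 108 with the cells' mean CPM. The count of genes higher in T cells than in the other barcodes stayed within 1.5 times in each alternative that gave a value. Thinning also took the share with Trdc to 8.39% and 6.41% and that with Foxp3 to 5.59% and 0.641%. Depth limits the gates, these shares and the genes with under 20 UMIs. No paired analysis was possible because each library is 1 pool and the labels give no groups to pair.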
